A study of Mus musculus with 12 samples.

Results

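Polyamine metabolism was examined in the RNA-seq data through 10 genes, of 27179 genes counted: *Odc1*, *Azin1*, *Oaz1*, *Oaz2*, *Amd1*, *Srm*, *Sms*, *Smox*, *Sat1* and *Paox*. They were chosen by name, as the mouse genes of polyamine synthesis, breakdown and feedback control, and were found by their NCBI Gene IDs. All 10 were among the 15502 genes that passed the expression filter and were tested. Tibialis anterior (TA) muscles of 6 wild-type male C57BL/6N mice were compared. In each mouse 1 TA received 10 μg of the empty plasmid pcDNA3, a vector with the viral CMV promoter, by electroporation (6 Control muscles), and the TA of the other leg received 10 μg of plasmid that expresses the full-length human long noncoding RNA *FRAIL1* (6 *FRAIL1* muscles). Both were taken at day 7. The age of the mice is not among the labels of the samples. The paper's methods state that all its mice were several weeks old when obtained and were used soon after arrival. RNA came from whole muscle, transfected fibers and all other cells alike, so that fewer cells of a type and less RNA per cell cannot be told apart. The human transcript is not among the mouse genes counted.

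Polyamines (putrescine, spermidine and spermine) are small, positively charged amines that bind nucleic acids and are needed for growth and translation. Ornithine decarboxylase, encoded by *Odc1*, makes putrescine, and the aminopropyl groups that turn putrescine into spermidine and spermidine into spermine come from decarboxylated S-adenosylmethionine, the product of AMD1. Spermine oxidase, encoded by *Smox*, turns spermine back into spermidine, and its mRNA is known to fall in several forms of muscle atrophy.

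Total counts per muscle lay between 45018389 and 59309210 in the Control and between 44848322 and 60527385 in the *FRAIL1* group. Levels are given in CPM, counts scaled for library size and composition. A gene was called when its p-value from the quasi-likelihood test of edgeR, after Benjamini-Hochberg adjustment over all genes tested, was under 0.05. Each edgeR p below is adjusted in this way. *FRAIL1* muscle 5 stood apart from the other muscles, so calls that change without the muscles numbered 5 are also given without them. That removal followed from values already seen, so p-values without these muscles show how calls depend on them and are no separate test.

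Of the 10 genes, *Sat1* was called higher and *Sms* was called lower in *FRAIL1* muscles, and the other 8 were not called. Among all genes tested 6.28% were called, 4.43% higher and 1.85% lower. An unadjusted edgeR p under 0.05 was found for 5 of the 10 genes, and for 27.7% of all genes tested. The median log2 fold change of the 10 genes was 0.011, beside 0.0096 over all genes tested, and 5 of the 10 were positive. *Smox* and *Amd1* had the lowest fold changes of the 10, -0.93 and -1.04 on the log2 scale. Ranked from the lowest log2 fold change of the 15502 genes, *Amd1* was number 14 and *Smox* number 32, yet neither passed the threshold. With the replicate number, taken as the mouse, as a block, 3 of the 10 genes were called, *Sat1* and *Azin1* higher and *Sms* lower, against 14.1% of all genes.

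**Figure D1:**
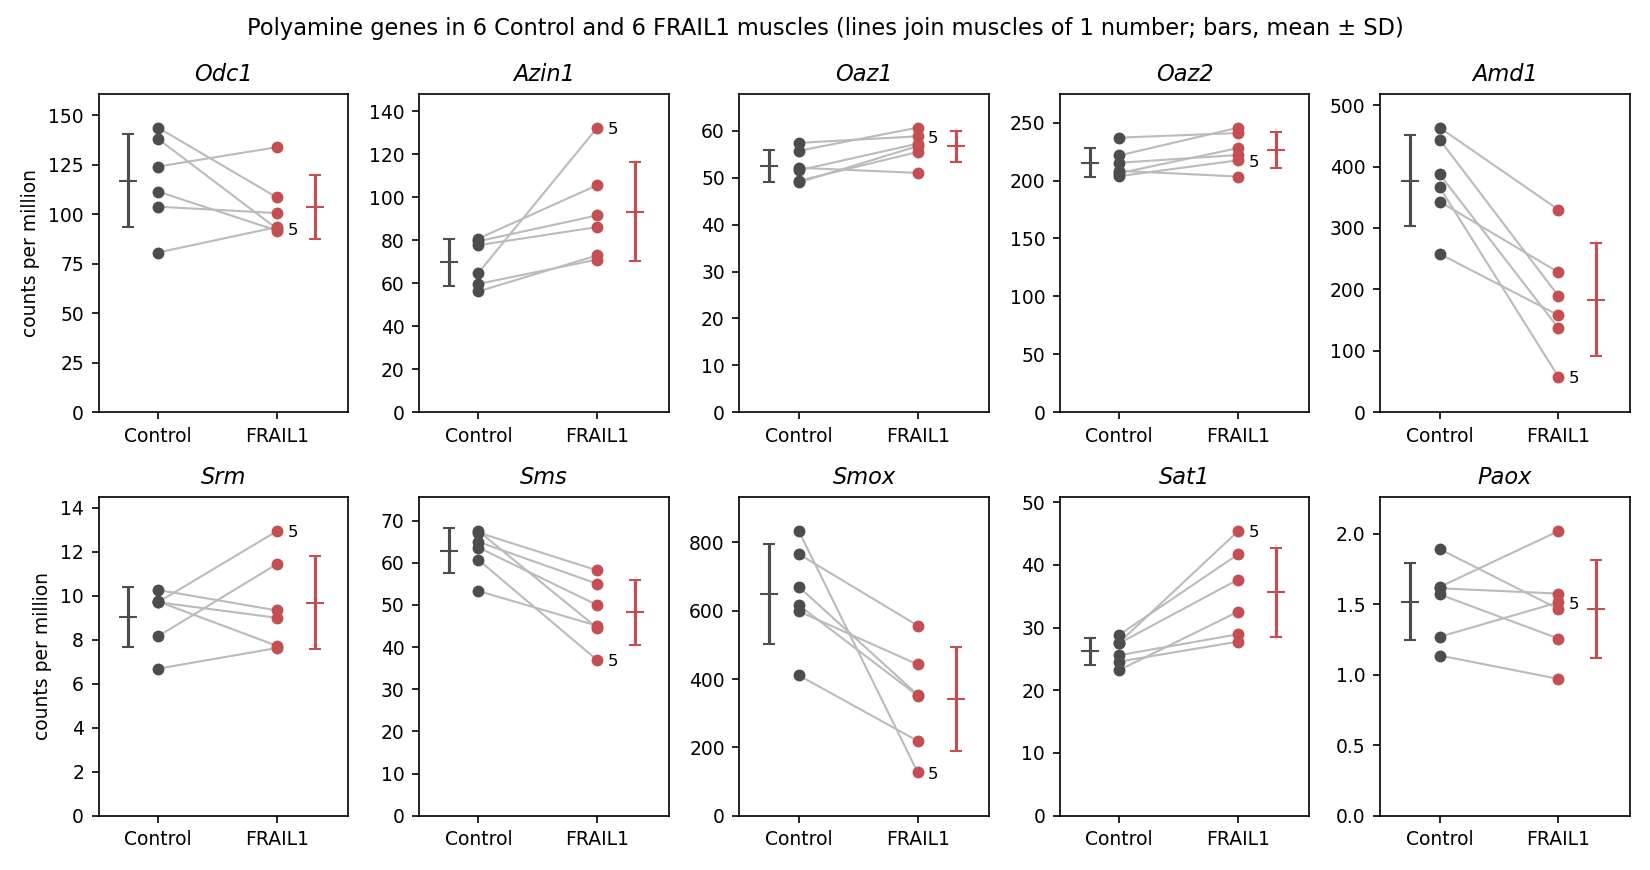
CPM of the 10 polyamine genes (vertical axes, from 0) in the 6 Control and 6 FRAIL1 muscles, with a line joining the muscles of 1 replicate number and bars for the mean ± SD. The lines of Amd1, Sms and Smox fall in 6 of 6 pairs and those of Azin1 and Sat1 rise in 6 of 6, and FRAIL1 muscle 5 (marked 5) is the lowest for Amd1, Sms and Smox and the highest for Azin1 and Sat1.

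*Smox* (Gene ID 228608) lies at chr2:131491858-131525183 on the plus strand of GRCm38. Control muscles ranged from 411 to 833 CPM with a median of 643 CPM. The *FRAIL1* muscles ranged from 127 to 556 CPM with a median of 353 CPM. The groups overlapped: *FRAIL1* muscles 2 and 3 lay above Control muscle 6, the lowest of its group. Means were 649 ± 147 and 342 ± 154 CPM (SD, n = 6 each), a log2 fold change of -0.93 (SE 0.302, 95% interval -1.58 to -0.27). The edgeR adjusted p was 0.0791, and DESeq2's Wald test, which called 15% of the genes it tested, gave an adjusted p of 0.0200.

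By mouse, the log2 difference of *Smox* between the *FRAIL1* and the Control muscle was -0.92, -0.46, -0.43, -0.81, -2.71 and -0.91 for numbers 1 to 6. The difference was negative in 6 of 6 mice, which held for 11.7% of all genes tested. Mouse 5 stood far from the other 5, since its Control muscle was the highest and its *FRAIL1* muscle the lowest of their groups. With a block for the mouse, edgeR gave a log2 fold change of -1.02 and an adjusted p of 0.0848. Without both muscles numbered 5 edgeR gave a log2 fold change of -0.67 (adjusted p = 0.154) when no block was fitted, and of -0.71 (SE 0.0814, adjusted p = 7.1e-04) with the block. These 2 p-values follow the removal of the mouse with the most distant *Smox* difference, so they are no separate test. *FRAIL1* muscle 2, the highest of its group, also moved the call, since without it the edgeR adjusted p was 0.0362.

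Among the Control muscles *Smox* was a variable gene. Its coefficient of variation was 22.7% in the Control and 45.0% in the *FRAIL1* group, and the Control value was at percentile 96.8 among genes with a Control mean of at least 10 CPM. *Odc1* was at percentile 95.2, whereas *Oaz2* was at percentile 27.8.

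S-adenosylmethionine decarboxylase, the enzyme that makes the aminopropyl donor for both spermidine and spermine, is encoded by *Amd1* (Gene ID 11702, chr10:40287458-40302188, minus strand). *Amd1* ranged from 258 to 463 CPM in Control muscles (median 377 CPM) and from 57.5 to 330 CPM in *FRAIL1* muscles (median 173 CPM). Only *FRAIL1* muscle 2 reached into the Control range, and *FRAIL1* muscle 5 was again the lowest. Means were 377 ± 74.2 and 183 ± 91.8 CPM (SD, n = 6 each), a log2 fold change of -1.04 (SE 0.322, 95% interval -1.74 to -0.34). Its adjusted p was 0.0696 by edgeR and 0.0141 by DESeq2. It was lower in 6 of 6 mice, by 0.49 to 2.66 on the log2 scale. A block for the mouse gave an edgeR adjusted p of 0.0567. Without both muscles numbered 5 it was 0.0905, or 0.0484 with the block. Without *FRAIL1* muscle 2 alone, and with no block, it was 0.0241.

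The reads of *Amd1* cannot be cleanly separated from those of *Amd2* (Gene ID 100041585, chr10:35708691-35711891, minus strand), a near-identical gene on the same chromosome. The *Amd2* transcript matched 99.8% of the *Amd1* transcript at 98% identity or more, and *Amd-ps3* and *Amd-ps4* matched 31.4% each. Since uniquely mapped reads were counted, the split between these genes is uncertain. *Amd2* means were 49.97 ± 12.4 and 24.4 ± 12.5 CPM in Control and *FRAIL1* muscles (SD, n = 6 each), a log2 fold change of -1.03 (SE 0.330, edgeR adjusted p = 0.0759, or 0.0474 with the block). Of the counts of both genes, *Amd1* took 87.5% to 89.2% in Control muscles and 87.9% to 88.8% in *FRAIL1* muscles, so the share stayed in a narrow range while the levels varied widely. Summed, the pair had a log2 fold change of -1.04 (edgeR adjusted p = 0.0701, or 0.0548 with the block).

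The 250 bases before the RefSeq start site of *Smox*, *Amd1* and *Amd2*, the 3 with the lowest fold changes, and of *Sat1* and *Sms*, the 2 genes called, are shown from RefSeq (GRCm38.p6). The start site of *Smox* used here lies 4 bases inside the annotated gene, and those of the other genes shown are at the gene's start. They are written 5′ to 3′ on the strand of the gene, and capitals mark each match of the E-box CACGTG, the CCAAT box, the GC box GGGCGG, the TATA box TATAAA, or AGAACA, part of the site of steroid receptors, on either strand.
Smox (chr2:131491612-131491861, plus strand): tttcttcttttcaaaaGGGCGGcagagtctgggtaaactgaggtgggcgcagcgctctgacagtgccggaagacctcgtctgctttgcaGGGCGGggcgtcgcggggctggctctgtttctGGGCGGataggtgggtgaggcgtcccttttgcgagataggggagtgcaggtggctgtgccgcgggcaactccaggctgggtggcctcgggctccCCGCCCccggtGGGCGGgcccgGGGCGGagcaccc
Amd1 (chr10:40302189-40302438, minus strand): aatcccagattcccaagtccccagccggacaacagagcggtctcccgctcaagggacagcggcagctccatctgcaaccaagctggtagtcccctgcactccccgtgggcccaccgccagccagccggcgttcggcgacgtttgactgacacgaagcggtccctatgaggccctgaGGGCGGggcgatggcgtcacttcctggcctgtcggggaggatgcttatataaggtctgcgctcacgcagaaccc
Amd2 (chr10:35711892-35712141, minus strand): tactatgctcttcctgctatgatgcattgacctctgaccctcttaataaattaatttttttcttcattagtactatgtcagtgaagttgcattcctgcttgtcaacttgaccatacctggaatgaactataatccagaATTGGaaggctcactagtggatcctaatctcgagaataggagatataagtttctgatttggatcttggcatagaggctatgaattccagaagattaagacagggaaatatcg
Sat1 (chrX:155216450-155216699, minus strand): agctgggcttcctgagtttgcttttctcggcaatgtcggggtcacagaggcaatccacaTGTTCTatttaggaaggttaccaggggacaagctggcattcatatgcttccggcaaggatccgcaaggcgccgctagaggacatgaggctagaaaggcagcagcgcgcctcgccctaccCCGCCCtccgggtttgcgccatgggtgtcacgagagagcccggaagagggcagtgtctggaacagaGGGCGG
Sms (chrX:157492288-157492537, minus strand): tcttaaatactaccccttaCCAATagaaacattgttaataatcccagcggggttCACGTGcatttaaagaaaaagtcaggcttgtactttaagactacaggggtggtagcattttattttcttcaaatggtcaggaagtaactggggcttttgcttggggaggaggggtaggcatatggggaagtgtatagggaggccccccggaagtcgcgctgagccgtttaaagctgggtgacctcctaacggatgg
*Smox* held 6 matches of GGGCGG in 68.0% GC, and no match of the other 4 motifs. *Amd1* held 1 GGGCGG in 64.4% GC, *Sat1* held 2 GGGCGG and 1 AGAACA, and the window of *Sms* at its gene start held 1 CCAAT and 1 CACGTG. A second window of *Sms*, before a start site 919 bases inside the gene (chrX:157491369-157491618), is not shown and held 4 matches of GGGCGG, some overlapping, in 75.2% GC. The stretch before *Amd2* had 37.6% GC and 1 CCAAT, and its best local match to that before *Amd1* was 7 bases long, whereas in the first 50 bases past the start sites, as far as was searched, the 2 genes shared an identical run of 48 bases. No matches overlapped in the 5 windows shown. Of 32851 RefSeq windows of the same length, 32.7% held GGGCGG and 33.8% the CCAAT box. The share was 16.1% for AGAACA, 12.4% for the TATA box and 6.02% for the E-box. Median GC over all these windows was 52.4%, and the shares are not matched to the GC of the windows shown. No window was given for *Srm* and *Azin1*.

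The aminopropyl groups are passed on by 2 synthases. Spermidine synthase, *Srm* (Gene ID 20810, chr4:148591513-148594619, plus strand), ranged from 6.68 to 10.3 CPM in Control muscles (median 9.71 CPM) and from 7.62 to 12.9 CPM in *FRAIL1* muscles (median 9.17 CPM). The groups overlapped over most of their range, with a log2 fold change of 0.097 (95% interval -0.20 to 0.39, edgeR adjusted p = 0.687). Spermine synthase, *Sms* (Gene ID 20603, chrX:157443851-157492287, minus strand), ranged from 53.3 to 67.5 CPM in Control muscles (median 64.3 CPM) and from 36.9 to 58.2 CPM in *FRAIL1* muscles (median 47.5 CPM). *FRAIL1* muscles 2 and 3 lay above Control muscle 6, the same overlap as for *Smox*. The mean fell from 62.9 ± 5.32 to 48.3 ± 7.76 CPM (SD, n = 6 each), a log2 fold change of -0.38 (SE 0.0970, edgeR adjusted p = 0.0343, or 0.0112 with the block). *Sms* was lower in 6 of 6 mice. The pseudogene *Sms-ps* matched 29.6% of the *Sms* transcript at 98% identity or more, so its count is uncertain to that extent. The log2 ratio of *Sms* to *Srm* was 2.81 ± 0.307 in Control and 2.33 ± 0.484 in *FRAIL1* muscles (SD, n = 6 each), lower in 5 of 6 mice.

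Spermine is broken down by SMOX directly. Both spermine and spermidine are broken down through acetylation by SAT1, spermidine/spermine N1-acetyltransferase, and oxidation of the acetylated forms by PAOX, polyamine oxidase. *Sat1* (Gene ID 20229, chrX:155213126-155216449, minus strand) ranged from 23.2 to 28.8 CPM in Control muscles (median 26.6 CPM) and from 27.8 to 45.4 CPM in *FRAIL1* muscles (median 35.1 CPM). *FRAIL1* muscle 3 alone lay within the Control range, and none of the 10 genes had groups without overlap, against 3.12% of all genes with all *FRAIL1* muscles above and 1.77% with all below. The mean rose from 26.2 ± 2.12 to 35.7 ± 7.10 CPM (SD, n = 6 each), a log2 fold change of 0.44 (SE 0.112, edgeR adjusted p = 0.0348, or 0.00879 with the block). *Sat1* was higher in 6 of 6 mice, which held for 11.5% of all genes tested. *Paox* (Gene ID 212503, chr7:140115735-140134334, plus strand) had few counts, at 1.14 to 1.89 CPM in Control muscles (median 1.59 CPM) and 0.971 to 2.02 CPM in *FRAIL1* muscles (median 1.49 CPM). The groups overlapped, and the log2 fold change was -0.049, with a wide 95% interval of -0.45 to 0.35 (edgeR adjusted p = 0.893). A predicted gene, *Gm19680*, matched 29.2% of the *Paox* transcript.

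The 2 enzymes that start from spermine thus had fold changes of opposite sign. The log2 ratio of *Smox* to *Sat1* counts was 4.598 ± 0.294 in Control and 3.13 ± 0.991 in *FRAIL1* muscles (SD, n = 6 each). The ratio fell within each of the 6 mice, and its ranges overlapped, 4.14 to 4.91 against 1.48 to 4.26.

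Without the block, the calls of *Sat1* and *Sms* depended on single muscles. When each muscle was left out in turn, *Sat1* stayed under the threshold in 4 of 12 fits, those without *FRAIL1* muscle 2, 3, 5 or 6, and its edgeR adjusted p reached 0.0762. *Sms* stayed under it in 4 of 12, those without Control muscle 6 or *FRAIL1* muscle 2, 3 or 5, and its edgeR adjusted p reached 0.0749. In the same fits the number of all genes called moved between 364 and 2110, from 974 with all muscles. Without both muscles numbered 5, the edgeR adjusted p was 0.0385 for *Sms* and 0.0599 for *Sat1*, or 0.00239 and 0.00190 with the block, so that both were called in the fit by mouse.

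Putrescine synthesis itself showed no called gene without the block. *Odc1* (Gene ID 18263, chr12:17544808-17551502, plus strand) ranged from 80.7 to 144 CPM in Control (median 118 CPM) and from 91.8 to 134 CPM in *FRAIL1* muscles (median 97.0 CPM). The groups overlapped fully, with means of 117 ± 23.4 and 103 ± 16.2 CPM (SD, n = 6 each). The log2 fold change was -0.18 (95% interval -0.46 to 0.11, edgeR adjusted p = 0.408). ODC protein is destroyed by the proteasome when antizyme binds it, and antizyme inhibitor, an ODC relative without enzyme activity, takes antizyme away.

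The antizymes *Oaz1* (Gene ID 18245, chr10:80826656-80829290, plus strand) and *Oaz2* (Gene ID 18247, chr9:65676548-65690300, plus strand) varied least of the 10 genes among Control muscles, with coefficients of variation of 6.49% and 5.77%. *Oaz1* ranged from 49.0 to 57.5 CPM in Control (median 51.9 CPM) and from 51.1 to 60.7 CPM in *FRAIL1* muscles (median 57.0 CPM), with a log2 fold change of 0.11 and a 95% interval of -0.013 to 0.23 (edgeR adjusted p = 0.230). *Oaz2* ranged from 204 to 237 CPM (median 212 CPM) and from 203 to 246 CPM (median 225 CPM), with a log2 fold change of 0.071 and a 95% interval of -0.061 to 0.20 (edgeR adjusted p = 0.484). Both were higher in 5 of 6 mice, with groups that overlapped. *Oaz1-ps* matched 63.6% of the *Oaz1* transcript and *Oaz2-ps* 25.6% of the *Oaz2* transcript at 98% identity or more.

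*Azin1*, antizyme inhibitor (Gene ID 54375, chr15:38487430-38519294, minus strand), ranged from 56.2 to 80.8 CPM in Control (median 71.3 CPM) and from 71.0 to 132 CPM in *FRAIL1* muscles (median 88.9 CPM). *FRAIL1* muscles 2 and 6 lay within the Control range, and muscle 5 was the highest. Means were 69.8 ± 10.9 and 93.3 ± 23.0 CPM (SD, n = 6 each). The log2 fold change of 0.42 (SE 0.1502) had an edgeR adjusted p of 0.0978, which passed the threshold with the block, at 0.0336. *Azin1* was higher in 6 of 6 mice. By mouse, the log2 difference was 1.02 in mouse 5 and between 0.15 and 0.39 in the others. Without both muscles numbered 5 the log2 fold change was 0.27, with an edgeR adjusted p of 0.277, or 0.00294 with the block. The log2 ratio of *Azin1* to both antizymes together was -1.95 ± 0.271 in Control and -1.63 ± 0.345 in *FRAIL1* muscles (SD, n = 6 each), with the same sign in each of the 6 mice.

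**Figure D2:**
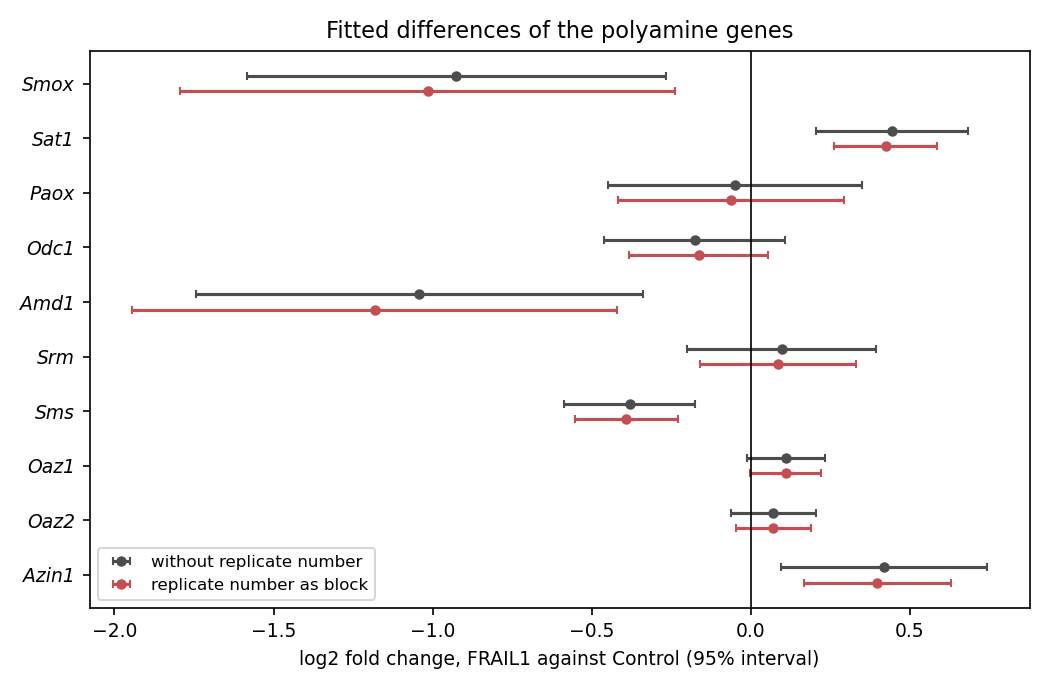
Fitted log2 fold changes of FRAIL1 against Control muscles (horizontal axis) with 95% intervals for the 10 polyamine genes, without the replicate number (grey) and with it as a block (red). Intervals are widest for Amd1 and Smox, at -1.04 and -0.93 without the block, and narrowest for Oaz1 and Oaz2.

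Compared per length, as CPM per kb of annotated exon, *Smox* had the highest mean of the 10 genes in Control muscles, at 167 ± 37.8 (SD, n = 6). *Amd1* followed at 106 ± 20.9, then *Oaz2* at 72.1 ± 4.16, *Odc1* at 34.4 ± 6.87 and *Oaz1* at 20.5 ± 1.33 CPM per kb (SD, n = 6 each). The ranges of *Smox* and *Amd1* and those of *Amd1* and *Oaz2* overlapped, whereas *Oaz2*, *Odc1* and *Oaz1* were separate from one another. *Azin1* at 11.2, *Sms* at 10.5 and *Sat1* at 9.46 CPM per kb had ranges that overlapped in this order, followed without overlap by *Srm* at 5.66 and *Paox* at 0.309 CPM per kb. In *FRAIL1* muscles the means came in another order at the top. *Smox* was at 87.7 ± 39.4, *Oaz2* at 75.7 ± 5.21 and *Amd1* at 51.7 ± 25.9 CPM per kb (SD, n = 6 each), and *Azin1* (14.9) and *Sat1* (12.9) lay above *Sms* (8.03). The length merges the exons of all annotated transcripts, and was 2558 bases for *Oaz1* and 2774 for *Sat1*. Their longest coding transcripts had 1071 and 1162 bases, so the order and the overlap of ranges depend on the length used. Reads that did not map uniquely were not counted, so the levels of *Amd1*, *Oaz1*, *Oaz2*, *Sms* and *Paox*, which have near copies, may be too low. At 95% identity or more, *Gm7993* matched 62.6% of the *Odc1* transcript and *Gm5552* 44.1% of the *Sat1* transcript.

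**Figure D3:**
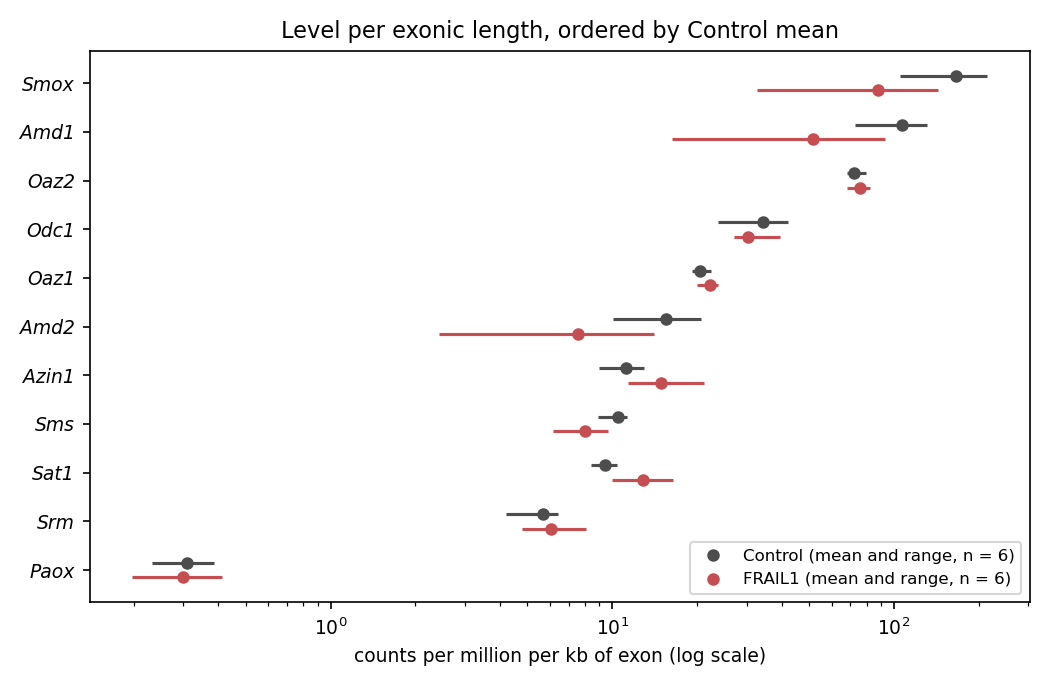
Mean level (points) and range over 6 muscles (lines) of the 10 polyamine genes and Amd2, as CPM per kb of exon on a log scale, ordered by the Control mean. Smox leads in both groups, at 167 and 87.7, and Paox is last, at 0.309 and 0.299.

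Within each group, *Smox* was set against the other 9 genes on the log2 scale over 6 muscles, 18 relations in all, and no relation passed after Benjamini-Hochberg adjustment. In *FRAIL1* muscles the correlation with *Amd1* had Pearson's r = 0.93 (exact permutation p = 0.00833, adjusted 0.075) and Spearman's rho = 0.83 (exact permutation p = 0.0583, adjusted 0.21). Without *FRAIL1* muscles 5 and 6, the farthest from the median of *Smox*, r was 0.93. *Sms* followed *Smox* in *FRAIL1* muscles with r = 0.91 (exact permutation p = 0.0139, adjusted 0.0833) and rho = 0.89 (exact permutation p = 0.0333, adjusted 0.20), and r was 0.73 without those muscles. In Control muscles r with *Amd1* was 0.76 (exact permutation p = 0.0917, adjusted 0.275) and rho 0.60 (exact permutation p = 0.242, adjusted 0.483), with r = 0.65 without Control muscles 5 and 6. In Control muscles *Oaz2* was lower where *Smox* was higher, with r = -0.96 (exact permutation p = 0.00556, adjusted 0.075) and rho = -0.94 (exact permutation p = 0.0167, adjusted 0.15), and r = -0.78 without the same 2 muscles. In *FRAIL1* muscles the r of *Oaz2* was -0.11 (exact permutation p = 0.833, adjusted 0.882). *Oaz1* had r = -0.79 there (exact permutation p = 0.0667, adjusted 0.24) and rho = -0.94 (exact permutation p = 0.0167, adjusted 0.15). In Control muscles the r of *Oaz1* was -0.033 (exact permutation p = 0.956, adjusted 0.956). *Odc1* had r = 0.90 in Control (exact permutation p = 0.0194, adjusted 0.0875) and 0.68 in *FRAIL1* muscles (exact permutation p = 0.121, adjusted 0.281). Outside these 18 relations, r with *Smox* in *FRAIL1* muscles was also read for 7 myofiber genes. It was 0.98 for *Myh4*, 0.94 for *Ckm*, 0.90 for *Ttn* and 0.59 for *Acta1*. For *Myh7*, *Myh2* and *Myh1* it was -0.15, -0.16 and -0.85. A high r with *Smox* was thus not particular to polyamine genes.

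Of 13009 genes with a mean of at least 1 CPM, the 5 most like *Smox* by the smaller of its r values within the 2 groups of 6 muscles were *Tesk1*, *Rabl6*, *Relt*, *Kcng4* and *Gfer*, with smaller values of 0.96, 0.95, 0.94, 0.93 and 0.93. These values describe a ranking over many genes and 6 muscles each. *Amd1* was number 113, *Odc1* number 215 and *Sms* number 441 in it. Of the 5 genes *Rabl6* was called, with a log2 fold change of -0.36 (edgeR adjusted p = 0.0339).

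Summed markers of denervated or regenerating fibers and of fibroblasts did not overlap between the groups, and *FRAIL1* muscle 5 had the highest sum of both. Gene by gene, all *FRAIL1* muscles lay above for 7 of 9 and 3 of 6 of these genes, against 3.12% of all genes tested. The summed level of 9 genes of denervated or regenerating fibers, led by *Myh8*, was 185 to 244 CPM in Control muscles. In *FRAIL1* muscles it was 397 to 1703 CPM, without overlap, and 7 of the 9 were called higher. Of all genes tested 4.43% were called higher and 1.85% lower. The sum of 7 myofiber genes, led by *Myh4*, was 106185 to 124723 CPM in Control muscles and 82782 to 112122 CPM in *FRAIL1* muscles, with *Ckm* called lower. *FRAIL1* muscle 5 had the highest sum of the first list and the lowest of the second, together with the lowest *Smox*, *Amd1* and *Sms* and the highest *Sat1* and *Azin1*. Sums of 6 fibroblast genes, led by *Col3a1*, were between 965 and 1806 CPM against 1923 and 5259 CPM (*Postn* called higher), and of 8 macrophage genes, led by *Lyz2*, between 203 and 316 CPM against 255 and 672 CPM (0 called). Endothelial genes (5, led by *Pecam1*) summed to between 359 and 413 CPM against 286 and 365 CPM, with *Tek* and *Vwf* called lower. Satellite cell genes (4, led by *Cdh15*) summed to between 52.6 and 67.1 CPM against 64.6 and 83.1 CPM, and lymphocyte genes (5, led by *Ptprc*) to between 24.4 and 48.1 CPM against 24.5 and 61.7 CPM, with 0 called in either. Where edgeR called 0, an unadjusted p under 0.05 was found for 5 of 8 macrophage, 3 of 4 satellite cell and 0 of 5 lymphocyte genes, and DESeq2 called 4, 3 and 0 of them. Over all genes tested the shares were 27.7% at that unadjusted p and 15% by DESeq2. With the block edgeR called 4 macrophage and 3 satellite cell genes higher, 0 fibroblast and 0 lymphocyte genes, and 2 myofiber and 3 endothelial genes lower, while the 7 of 9 denervation or regeneration genes stood. Of all genes, the fit with the block called 7.48% higher and 6.62% lower. When both muscles numbered 5 were left out, 7 of those 9 were called higher in either fit, 0 macrophage genes in either, and 0 fibroblast and 0 satellite cell genes, or 2 of each with the block. *Ckm*, *Postn* and *Vwf* were then not called with no block, whereas *Pecam1* was called lower and *Tek* stayed called lower. With the block and without these muscles, 5 of 5 endothelial genes were called lower. The same fit called 3 of 7 myofiber genes lower (*Ckm*, *Myh4* and *Ttn*), and 1212 of all 15525 genes it tested. *FRAIL1* muscle 5 was within the range of the other *FRAIL1* muscles for the macrophage, endothelial and lymphocyte sums. Each sum follows its most abundant genes. Positive log2 fold changes were found for 9 of 9 denervation or regeneration, 6 of 6 fibroblast, 7 of 8 macrophage and 4 of 4 satellite cell genes. The same held for 2 of 7 myofiber, 2 of 5 lymphocyte and 0 of 5 endothelial genes. *Dcn*, a fibroblast gene, stayed level at 0.019, *Myh1* and *Myh7* were at 0.14 and 0.39, and *Cd163*, a macrophage gene, was at -0.21, none called. No marker was at 0 in every muscle, and the part of any of these lists in the levels of the polyamine genes was not tested.

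**Figure D4:**
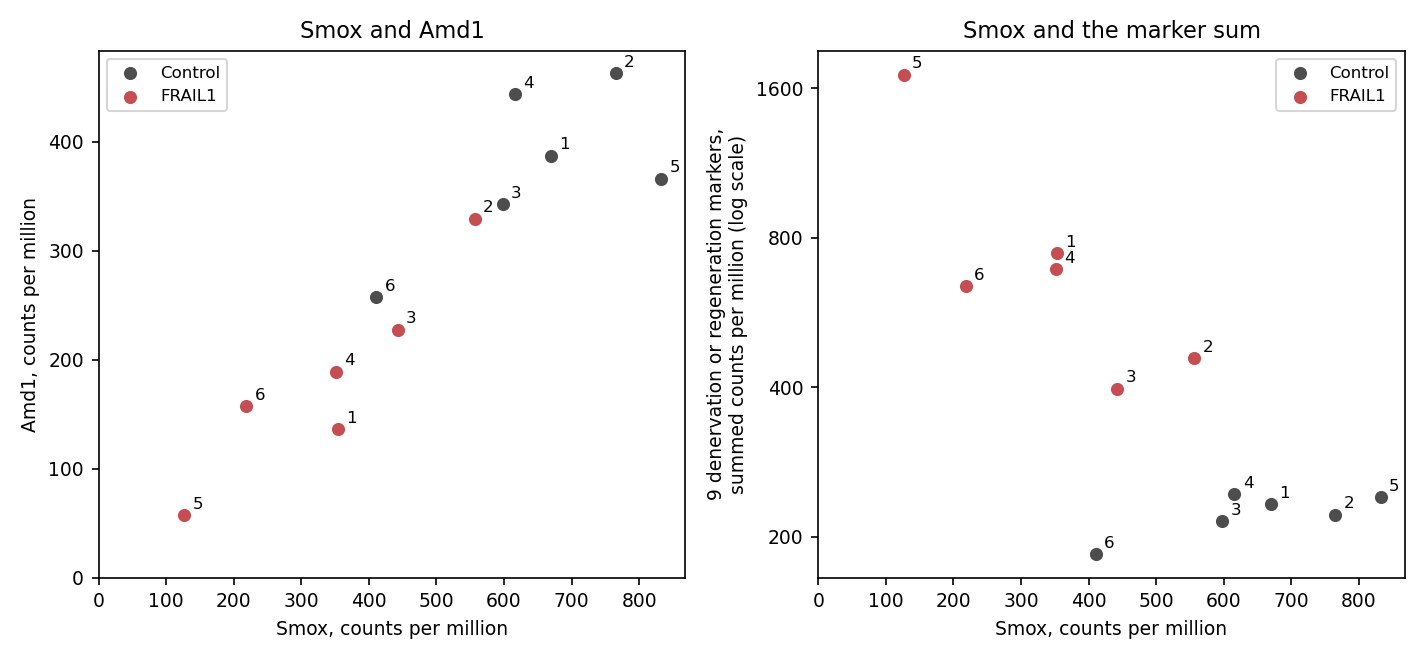
Smox (horizontal axes, CPM) against Amd1 (left, CPM) and against the sum of 9 denervation or regeneration genes (right, CPM, log scale) in 12 muscles, numbered by replicate. FRAIL1 muscle 5 has the lowest Smox (127 CPM) and Amd1 (57.5 CPM) and the highest marker sum (1703 CPM).

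Around the 10 genes, 44 further genes of the pathway were looked up, of which 35 were tested. *Cdkn1a* was called higher, 0 were called lower, and the median log2 fold change was -0.0080. An unadjusted p-value under 0.05 was found for 27.7% of all genes tested, and for 10 of these 35, and DESeq2's Wald test called 6 of the 35. With the mouse as a block 1 was called higher and 6 lower, against 7.48% and 6.62% of all genes.

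*Cdkn1a*, which encodes the cell cycle inhibitor p21 and was listed among 4 regulators tied to polyamine genes, ranged from 29.1 to 64.8 CPM in Control and from 72.7 to 132 CPM in *FRAIL1* muscles. All *FRAIL1* muscles lay above all Control muscles, as for 3.12% of all genes tested. The fitted log2 fold change was 1.02 (SE 0.202, edgeR adjusted p = 0.0177, or 0.0287 with the block). Without both muscles numbered 5 it was 0.93, and *Cdkn1a* was no longer called, with an edgeR adjusted p of 0.0644, or 0.109 with the block. Of the same list, *Myc*, *Nfe2l2* and *Pmf1* were not called in either fit.

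For the supply of arginine and ornithine, 5 of 8 genes were tested and 0 called, with 3 lower under the block. *Oat*, ornithine aminotransferase and the most abundant of them, measured 154 ± 9.95 and 130 ± 22.3 CPM in Control and *FRAIL1* muscles (SD, n = 6 each), with a log2 fold change of -0.24 (edgeR adjusted p = 0.1403, or 0.0411 with the block). *Slc7a2*, a transporter of cationic amino acids, had -0.30 (0.0614 and 0.0118) and *Slc25a15*, the mitochondrial ornithine carrier, -0.21 (0.0769 and 0.0359) in the same fits. All 3 were lower in 6 of 6 mice.

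Of the genes that supply S-adenosylmethionine and salvage methylthioadenosine, 9 of 10 were tested and 0 called. *Mat2a*, which makes S-adenosylmethionine in most tissues outside the liver, was the most abundant, at 228 ± 17.7 CPM in Control and 234 ± 16.5 CPM in *FRAIL1* muscles (SD, n = 6 each), with a log2 fold change of 0.039 (95% interval -0.11 to 0.18, edgeR adjusted p = 0.749). *Mat1a*, the liver form, was at 0 in every muscle. *Adi1*, of the salvage pathway, had a log2 fold change of -0.35 (edgeR adjusted p = 0.0526, or 0.0102 with the block). *Adi1* was called lower with no block as well once both muscles numbered 5 were left out, at -0.31 (edgeR adjusted p = 0.0344).

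Hypusine, made from spermidine on the translation factor eIF5A, depends on 2 enzymes. *Eif5a* measured 409 ± 9.31 CPM in Control and 427 ± 4.85 CPM in *FRAIL1* muscles (SD, n = 6 each), with a log2 fold change of 0.060 (95% interval -0.045 to 0.17, edgeR adjusted p = 0.453), and 0 of 4 genes of this list were called in either fit. Of 10 genes of polyamine transport 7 were tested and 0 called in either fit. *Gpc1*, a proteoglycan that takes part in polyamine uptake, was the most abundant, at 386 ± 31.0 and 406 ± 30.6 CPM (SD, n = 6 each), with a log2 fold change of 0.072 (edgeR adjusted p = 0.546). Of 3 oxidases and dehydrogenases of polyamine products 2 were tested and 0 called, and *Maob*, monoamine oxidase B, had a log2 fold change of -0.35 (edgeR adjusted p = 0.247, or 0.0359 with the block). Of 5 copies and relatives of the 10 genes 4 were tested and 0 called, and *Amd2* was lower under the block. At an unadjusted p under 0.05 stood 3 of the arginine and ornithine genes, 2 of the S-adenosylmethionine genes, 2 of the copies and relatives, 1 of the transport genes (*Atp13a3*), and 0 of the hypusine genes and of the oxidases.

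**Figure D5:**
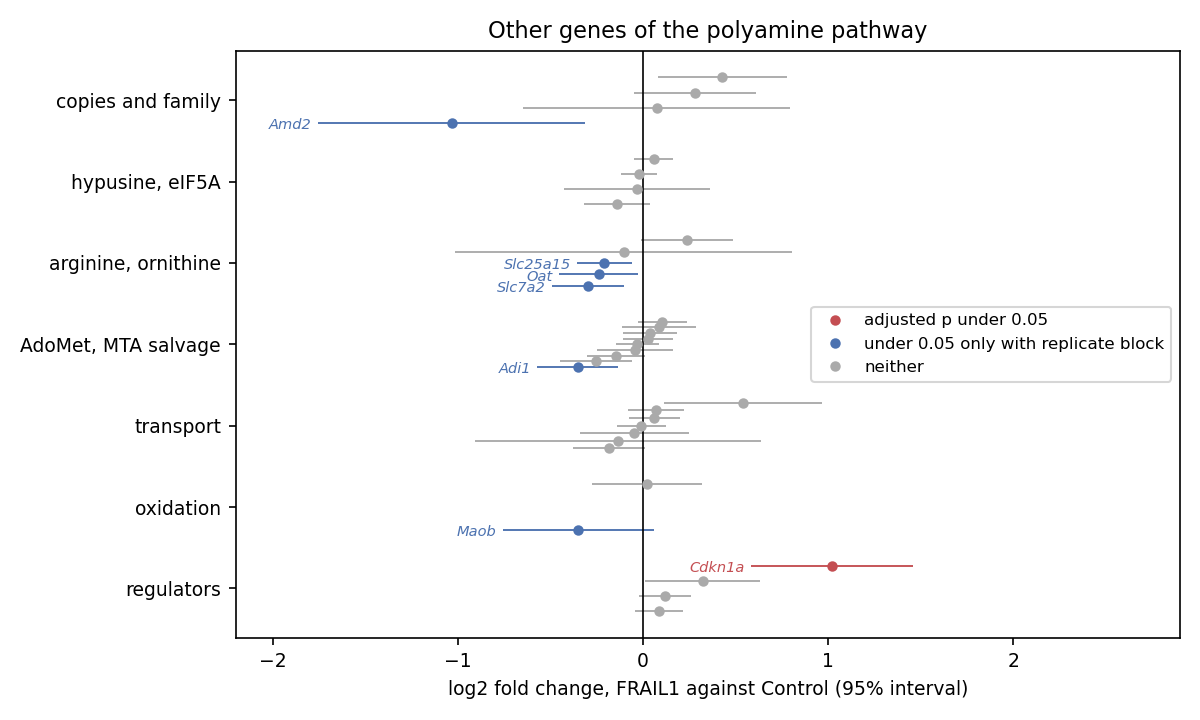
Log2 fold changes of FRAIL1 against Control muscles (horizontal axis) with 95% intervals for the 35 further genes tested, by group. Cdkn1a (red) passed the threshold without the block, and the 6 genes in blue, between -1.03 and -0.21, passed it with the replicate number as a block only.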

How the data were processed

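The authors trimmed paired-end reads with Trimmomatic, aligned them to mm10 with STAR 2.7.8a and counted uniquely mapped reads per gene with featureCounts 2.0.1, per the labels and the paper's methods, and deposited raw counts without normalization. The strand setting is not given in the sources used here. Entrez IDs were matched to RefSeq symbols on GRCm38.p6 (25275 of 27179). The 12 muscles were filtered with filterByExpr and scaled with TMM in edgeR 4.0.16 (R 4.3.3), and a robust quasi-likelihood fit compared 6 *FRAIL1* with 6 Control muscles without a block. The test was tested on simulated data.

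Named genes were the 10 polyamine genes, each further list's called genes and its most abundant gene, and the most abundant gene of each marker list. Of the regulator list, 1 gene is not reported here and was left out of its counts. The 5 genes most like *Smox* were named by their rank. Genes called only with the block, *Atp13a3* and single markers were named after their values were seen. These 10 genes, the lists, the rule and the alternatives were chosen with earlier results of these data known. The alternatives were the replicate block, DESeq2 1.42.0, other scalings and filters, and muscles left out, and summing *Amd1* with *Amd2* was added after seeing the data. Log2 CPM values used a prior of 0.5 CPM. Near copies were searched with BLAST 2.17.0 over at least 100 bases.

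Both TAs of each mouse were used, and muscles of 1 number were taken as 1 mouse, which the labels do not state. Deviations from the group means correlated at 0.322, 0.197, 0.350, 0.321, 0.0723 and 0.228 within numbers 1 to 6, with a mean of 0.248 against -0.0496 between different numbers. The error given is the spread between muscles.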

Additional observations from a re-analysis of the deposited data

Results flagged for a closer look

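In 72 groups of 6 values checked for a value far from the rest by Dixon's criterion at 95%, 5 stood apart, where chance alone gives about 1 in 20 groups. The values are not independent, since 4 of the 5 are of *FRAIL1* muscle 5 or mouse 5. The log2 difference of *Smox* in mouse 5 was -2.71, against -0.92 in the nearest mouse. The log2 difference of *Azin1* in mouse 5 was 1.02, against 0.39 in the nearest. The summed denervation or regeneration markers of *FRAIL1* muscle 5 were at 1703 CPM, against 744 CPM in the nearest *FRAIL1* muscle. Its summed fibroblast markers were at 5259 CPM, against 2445 CPM. *Mat2a* in Control muscle 6 was at 194 CPM, against 226 CPM in the nearest Control muscle.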

How the results depend on the processing

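With the replicate block in edgeR, the count of genes called went from 974 to 2186 and of the further pathway genes from 1 to 7. DESeq2's Wald test called 2232 genes, 5 of the 10 polyamine genes and 6 of the further genes, and with the replicate block 2898, 5 and 8. Leaving out both muscles numbered 5 gave 1 of the 10 genes, and with the replicate block 2305 genes, 5 of the 10 and 6 of the further genes. Leaving out 1 muscle at a time gave 364 to 2110 genes, 0 to 4 of the 10 and 1 to 6 of the further genes. It gave 0 of the 10 without Control muscle 1, 2, 3, 4 or 5 or *FRAIL1* muscle 1 or 4, 1 without Control muscle 6 or *FRAIL1* muscle 6, and 4 without *FRAIL1* muscle 2. The log2 fold change of *Smox* kept its sign in all 21 alternatives, with -0.93 (adjusted p = 0.0200) by DESeq2, -1.02 (0.00920) by DESeq2 with the replicate block, -0.71 (7.1e-04) by edgeR without both muscles numbered 5 and with the replicate block, and -1.12 to -0.76 with 1 muscle left out. Signs reversed for *Paox*, at 0.023 without Control muscle 1 and 0.043 without *FRAIL1* muscle 4, in a range from -0.16 to 0.043 with 1 muscle left out, and for *Srm*, at -0.0054 without *FRAIL1* muscle 5, in a range from -0.0054 to 0.16. The other 8 genes kept their sign in every alternative. Other scalings and filters called the same number, 2 of the 10. The replicate block changed the calls of *Azin1*, of 6 further genes and, among the markers named, of *Myh4* and *Lyz2* (called with it) and *Postn* (called without it), and no other call of a gene named. For *Cdkn1a* and the 6 further genes called with the block alone, the sign held in all 21 alternatives, and *Cdkn1a* lost its call only without both muscles numbered 5, in both fits. The cause was not tested. Depth limits *Paox* most, with 915 counts over 12 muscles.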
